A study of Mus musculus with 9 samples.

Results

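Peptidylarginine deiminases and epidermal transglutaminases harden the outer layers of skin and hair. The group described here is 9 genes, Padi1, Padi2, Padi3, Padi4, Tgm1, Tgm3, Tgm5, Casp14 and Asprv1, which were taken by symbol from the 54456 genes of the deposited count table. All 9 were found and all 9 passed the filter on low counts. Polyadenylated RNA of mouse skin was sequenced in 9 libraries from lesions named AA-like in the study's design text, and its title speaks of immune-mediated alopecia. The untreated group had 3 libraries from lesions left alone, the empty-device group had 3 from lesions given microneedles without a load, and the loaded-device group had 3 from lesions given microneedles that held IL-2 and CCL22. Microneedles are short needles that carry a load into the skin. The sources used here do not give the strain, age, dose, time of sampling or way the lesions arose, nor say whether a group's libraries are from separate animals. The p-values therefore cover the spread among these libraries alone, and that spread may be technical.

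Peptidylarginine deiminases, or PADs, turn arginine residues of proteins into citrulline, which removes a positive charge and loosens the protein for further processing. Transglutaminases join glutamine and lysine residues of neighbouring proteins by bonds that proteases do not cut. In the epidermis these enzymes and the proteases caspase-14 and SASPase, which Asprv1 encodes, act on filaggrin, loricrin and keratins as cells cornify. In the hair follicle PAD3 and transglutaminase 3 modify trichohyalin in the inner root sheath and medulla, and human PADI3, TGM3 and TCHH are the genes of uncombable hair syndrome.

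Total counts ran from 85962714 to 96740589 per library. Mitochondrial counts made up 4.56% to 4.72% in untreated libraries, 3.31% to 3.42% under the empty and 3.78% to 3.90% under the loaded device. This share moved with the groups, and whether it reflects RNA quality or the make-up of the tissue was not tested. Suprabasal keratins, 5 genes that mark differentiated epidermis, summed to 30520 to 31160 CPM in untreated libraries, 40840 to 42070 under the empty and 22830 to 24670 under the loaded device. CPM are read counts scaled to a common library size. Genes of a list of inner root sheath and medulla substrates, 11 in all, summed to 36110 to 37140, 23550 to 26760 and 41170 to 44230 CPM in the same order. The 6 basal keratinocyte genes summed to 13860 to 14590, 10490 to 10990 and 9817 to 10280 CPM. No gene of these lists was at 0 in all 9 libraries, and the liver genes Alb, Ttr, Serpina1c and Cyp3a11, a check for an absent tissue, summed to at most 0.724 CPM. The part of these shifts in the members' results was not tested. In bulk skin, fewer cells of a type and less RNA per cell cannot be told apart.

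The 4 PAD genes lie side by side on chromosome 4 in mm39, with Padi6 at the low end of the cluster. Padi4 spans 140473176 to 140501547, Padi3 140512676 to 140537959 and Padi1 140540294 to 140573089, all on the minus strand, and Padi2 spans 140633655 to 140679897 on the plus strand. The gap between Padi4 and Padi3 is 11.1 kb, that between Padi3 and Padi1 2.3 kb, and that between Padi1 and Padi2 60.6 kb. Tgm5 and Tgm3 lie on chromosome 2, at 120876592 to 120916322 (minus strand) and 129854269 to 129892319 (plus strand). Tgm1 lies on chromosome 14 from 55937466 to 55951383, Casp14 on chromosome 10 from 78547825 to 78554128, both on the minus strand, and Asprv1 on chromosome 6 from 86605146 to 86606692 on the plus strand.

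The 250 bases before the RefSeq start of 6 of these genes are printed here, read from RefSeq in build GRCm38.p6, which is not the mm39 build of the counts. Padi3, Padi4 and Padi1 are shown because they are neighbours that were all higher under the loaded than the empty device, Padi2 because it was lower in the same cluster, and Tgm5 and Asprv1 because their levels followed each other most closely although they lie on different chromosomes. Each is written 5′ to 3′ on the strand of the gene. Capitals mark 3 motifs searched on both strands, the AP-1 site (TGANTCA), the TATA box (TATAAA) and the CCAAT box (CCAAT or ATTGG), none of which overlapped another.
Padi3 (chr4:140810649-140810898, minus strand): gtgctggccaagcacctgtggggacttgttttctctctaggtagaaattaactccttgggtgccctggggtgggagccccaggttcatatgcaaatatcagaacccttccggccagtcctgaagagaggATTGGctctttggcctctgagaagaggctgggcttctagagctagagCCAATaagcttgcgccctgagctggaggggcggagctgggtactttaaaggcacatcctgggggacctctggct
Padi4 (chr4:140774204-140774453, minus strand): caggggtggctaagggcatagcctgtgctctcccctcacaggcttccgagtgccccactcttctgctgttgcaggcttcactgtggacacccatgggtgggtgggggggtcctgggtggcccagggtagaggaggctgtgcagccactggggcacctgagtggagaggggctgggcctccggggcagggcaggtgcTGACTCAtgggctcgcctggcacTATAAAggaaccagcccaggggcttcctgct
Padi1 (chr4:140845779-140846028, minus strand): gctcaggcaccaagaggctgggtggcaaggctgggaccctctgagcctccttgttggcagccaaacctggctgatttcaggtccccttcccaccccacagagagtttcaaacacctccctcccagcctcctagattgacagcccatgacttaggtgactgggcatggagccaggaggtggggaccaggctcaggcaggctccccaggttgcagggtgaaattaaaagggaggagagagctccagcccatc
Padi2 (chr4:140906110-140906359, plus strand): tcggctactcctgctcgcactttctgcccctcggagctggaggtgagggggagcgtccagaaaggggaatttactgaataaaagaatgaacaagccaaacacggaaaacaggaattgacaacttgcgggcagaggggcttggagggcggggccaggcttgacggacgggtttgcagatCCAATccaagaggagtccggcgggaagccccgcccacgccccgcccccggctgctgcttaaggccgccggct
Tgm5 (chr2:121085842-121086091, minus strand): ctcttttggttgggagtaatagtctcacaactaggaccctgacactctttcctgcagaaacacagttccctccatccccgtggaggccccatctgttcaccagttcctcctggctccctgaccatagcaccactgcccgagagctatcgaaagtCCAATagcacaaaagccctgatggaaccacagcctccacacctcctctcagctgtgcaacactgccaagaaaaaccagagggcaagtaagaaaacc
Asprv1 (chr6:86627924-86628173, plus strand): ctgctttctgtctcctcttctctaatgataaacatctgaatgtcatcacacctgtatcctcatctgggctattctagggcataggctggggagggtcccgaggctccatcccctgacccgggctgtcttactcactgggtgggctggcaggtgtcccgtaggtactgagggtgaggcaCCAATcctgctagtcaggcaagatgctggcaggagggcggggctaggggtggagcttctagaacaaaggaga

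Padi4 held a TATA box whose first letter lay 31 bases before the start and an AP-1 site 54 bases before it, and Padi3 held CCAAT boxes 121 and 74 bases before it. Padi2 and Asprv1 each held 1 CCAAT box, 72 bases before the start in both, Tgm5 held 1 at 96 bases, and the window of Padi1 held none of the 3 motifs. Among the members not printed, Tgm3 held a TATA box at 28 bases and CCAAT boxes at 137 and 52 bases, 1 of the 2 promoters listed for Tgm1 held a CCAAT box, and that of Casp14 held none of the 3. Over all 32544 promoter windows of this length, 6.73% held the AP-1 site, 12.3% the TATA box and 33.8% the CCAAT box. The GATA motif AGATAA was in none of the members' windows and in 9.97% of all. A match is a description of the letters, not a site of binding.

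Compared per length of the longest protein-coding GENCODE M21 transcript, Asprv1 was the most abundant in every group, at 3278 ± 183 CPM per kb in untreated libraries, 2784 ± 132 under the empty and 1611 ± 40.9 under the loaded device (mean ± SD, n = 3). Casp14 came next, at 269 ± 3.85, 456 ± 25.7 and 199 ± 7.63 CPM per kb, then Padi3 at 127 ± 4.71, 104 ± 6.36 and 170 ± 6.97. These 3 kept the first places in all groups. Tgm1 came after them, at 86.2, 99.1 and 91.0 CPM per kb, and with the empty device its libraries overlapped those of Padi3. Padi1 (41.8, 40.7 and 56.9 CPM per kb) and Tgm3 (45.3, 39.6 and 47.8) followed, with Tgm3 ahead in untreated libraries, Padi1 ahead with the loaded device and the libraries of both overlapping with the empty device. Padi4 stood at 29.8, 25.3 and 37.8 CPM per kb, Tgm5 at 23.7, 20.6 and 12.5, and Padi2 last at 0.837, 2.06 and 1.44. No other neighbours in this order overlapped. The counts cover whole gene spans, introns included, while the lengths are those of transcripts. Asprv1 spans 1547 bases with a transcript of 1547, and Tgm5 spans 39731 with a transcript of 2613. The part of intronic reads in this order was not tested.

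**Figure D1:**
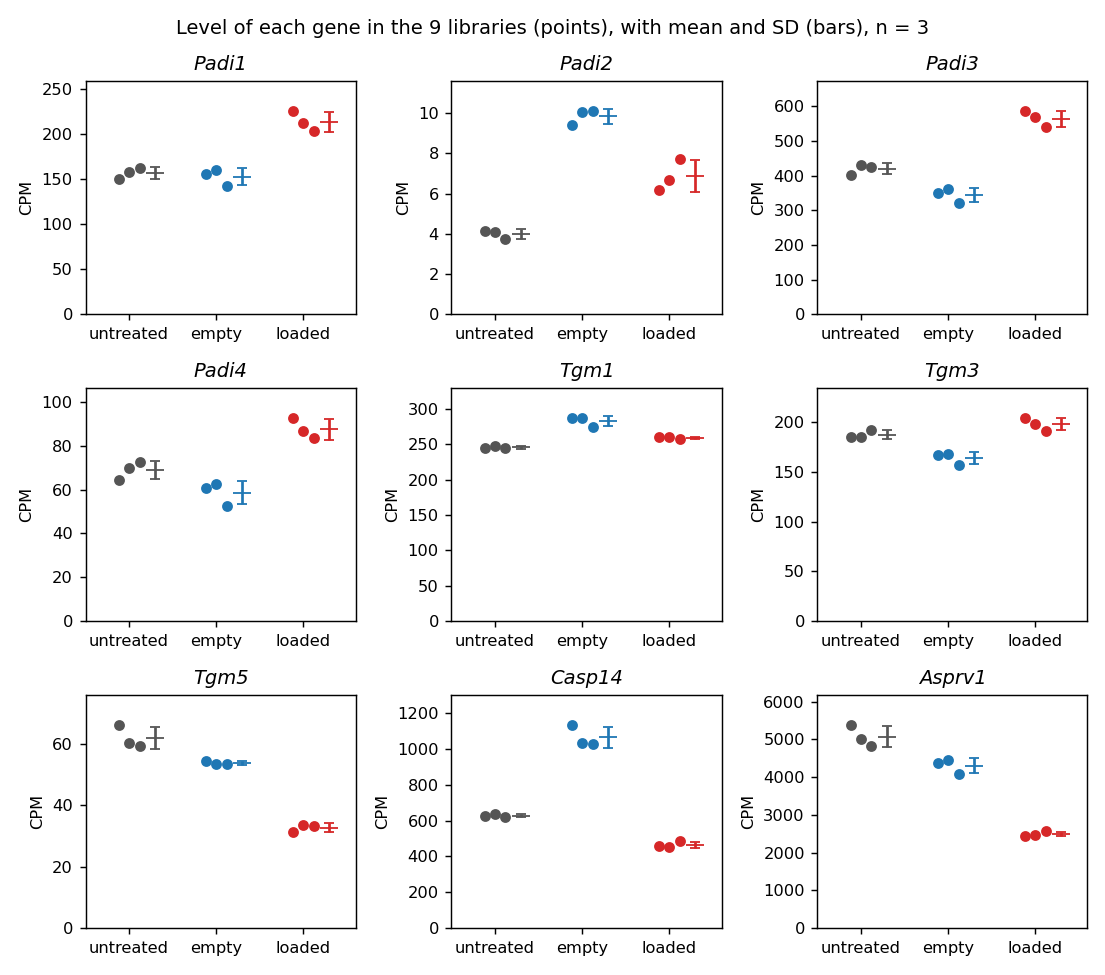
The level of each of the 9 genes in CPM (vertical axes from 0) is plotted for the 9 libraries, with points for libraries and bars for the mean and SD of 3. Padi1, Padi3 and Padi4 are highest with the loaded device, Padi2, Casp14 and Tgm1 with the empty device, and Tgm5 and Asprv1 in untreated libraries. Tgm3 is lowest with the empty device.

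PAD3, the deiminase of the inner root sheath and hair medulla, had the highest transcript level of the family. Padi3 stood at 402, 432 and 424 CPM in untreated skin, 351, 361 and 321 under the empty and 585, 568 and 539 under the loaded device. The 3 groups did not overlap, with the empty device lowest and the loaded device highest. Padi3 was 1.64-fold higher under the loaded than the empty device (log2 change 0.71, SE 0.042, edgeR adjusted p = 9.84e-13). Against untreated skin it rose with the loaded device by 0.43 ± 0.042 (log2 change ± SE) and fell with the empty device, at -0.28 ± 0.042 (-0.18 with library size alone).

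PAD1, which acts on keratins and filaggrin in the upper epidermis and is also made in the follicle, was higher with the loaded device. Padi1 stood at 150, 158 and 163 CPM in untreated skin, 156, 160 and 142 under the empty and 225, 213 and 203 under the loaded device. Every loaded-device library lay above the other 6, while the other groups overlapped. Padi1 rose with the loaded device by 0.44 ± 0.045 against untreated skin (edgeR adjusted p = 1.04e-07) and by 0.48 ± 0.045 against the empty device. Between the empty device and untreated skin the log2 fold change was -0.04 (SE 0.045, edgeR adjusted p = 0.524), and its sign turned with upper-quartile scaling (0.03), with library size alone (0.07) and without empty-device library 3 (0.05).

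Padi4, whose enzyme is best known for citrullinating histones in neutrophils, had the same order of groups as Padi3. It stood at 64.5, 69.6 and 72.7 CPM in untreated skin, 60.6, 62.5 and 52.7 under the empty and 92.5, 86.6 and 83.3 under the loaded device. The loaded-device libraries were the highest, and those of the empty device the lowest, with no overlap. Padi4 was 1.49-fold higher under the loaded than the empty device (log2 change 0.58, SE 0.070, edgeR adjusted p = 8.93e-05) and 1.27-fold higher than in untreated skin (0.34 ± 0.070, adjusted p = 0.00293). With the empty device it fell by 0.23 ± 0.070 on the log2 scale against untreated skin (edgeR adjusted p = 0.0206). That call was lost without untreated library 2 or 3 (-0.23 and -0.20, edgeR adjusted p = 0.0601 and 0.0537) and with DESeq2 size factors, upper-quartile scaling or library size alone (-0.20, -0.17 and -0.13). Without empty-device library 3 the value was -0.12 (edgeR adjusted p = 0.038).

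Markers of neutrophils did not move as 1 group. The 12 neutrophil genes summed to 29.8 to 31.7 CPM in untreated libraries, 29.6 to 30.8 under the empty and 17.9 to 21.4 under the loaded device, below the level of Padi4 in each library. Most of the sum was Cxcr2, a chemokine receptor gene, at 25.7 ± 1.10, 26.6 ± 0.856 and 15.8 ± 1.62 CPM. Of the 9 neutrophil genes tested, 3 fell and none rose with the loaded device against untreated skin, 2 fell and none rose with the empty device, and 4 were lower and 1 higher between the devices. Over all tested genes 23.3% fell and 19% rose with the loaded device, and 28.1% and 20.2% with the empty device. Between the devices 18.5% of all were lower and 22.9% higher. The 5 neutrophil calls between the devices became 3 when library 1 or library 3 of the empty device, or library 1 of the loaded device, was left out, and 2 without loaded-device library 2. Prtn3, the gene of the granule protease proteinase 3, had the same order of groups as Padi4, at 0.847 ± 0.0366, 0.574 ± 0.0670 and 1.02 ± 0.0524 CPM, and was higher between the devices (0.82 ± 0.17, edgeR adjusted p = 0.000164). Mpo, another granule gene, had the opposite order, at 0.334 ± 0.0494, 0.449 ± 0.0596 and 0.283 ± 0.0544 CPM. It was lower between the devices (-0.66 ± 0.25, edgeR adjusted p = 0.0324). Apart from Cxcr2, Csf3r, Prtn3 and Stfa2l1, each gene of the list, Ly6g among them, had a group mean of at most 0.449 CPM. Csf3r stood at 2.01 ± 0.0161, 1.26 ± 0.177 and 0.938 ± 0.159 CPM in the same order of groups. Stfa2l1 stood at 1.06 ± 0.00604, 0.842 ± 0.0998 and 0.561 ± 0.153 CPM. The ratio of Padi3 to Padi4 counts within a library averaged 6.09 in untreated skin, 5.88 under the empty and 6.45 under the loaded device. Padi4 lies next after Padi3 in the direction of transcription and the table counts whole gene spans. Whether reads that run on from Padi3 add to the Padi4 count was not tested, nor was the part of neutrophils in it.

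PAD2, a deiminase of many tissues that is known in brain, muscle and immune cells, had a low transcript level and another pattern. Padi2 stood at 4.14, 4.11 and 3.73 CPM in untreated skin, 9.39, 10.03 and 10.1 under the empty and 6.16, 6.70 and 7.73 under the loaded device. The 3 groups did not overlap, and the untreated libraries were lowest. Padi2 was 2.46-fold higher with the empty device than in untreated skin (log2 change 1.30, SE 0.078, edgeR adjusted p = 5.88e-14) and 1.72-fold higher with the loaded device (0.78 ± 0.081). It was lower under the loaded than the empty device, at -0.52 ± 0.072 (edgeR adjusted p = 8.36e-07).

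Markers of other cell types that can express Padi2 moved with the groups in part. The 8 skeletal muscle genes summed to 8375 to 8662 CPM in untreated libraries, 10480 to 12290 under the empty and 7666 to 8162 under the loaded device, which was the lowest where Padi2 was intermediate. The 8 macrophage genes summed to 287 to 302, 247 to 253 and 189 to 204 CPM, highest where Padi2 was lowest. Single genes went against both sums. Csf1r, the gene of a macrophage growth factor receptor, stood at 58.4 ± 0.330, 69.7 ± 1.21 and 44.5 ± 1.80 CPM and rose with the empty device (0.26 ± 0.034), where the other 7 macrophage genes fell. Myh4, a fast muscle myosin gene named after its values were seen, stood at 991 ± 33.5, 519 ± 40.8 and 1187 ± 93.1 CPM and fell with the empty device (-0.93 ± 0.062), where the other 7 muscle genes rose. Over all tested genes 28.1% fell and 20.2% rose with the empty device. The 7 Schwann cell and glial genes summed to 119 to 121, 124 to 139 and 100.4 to 106 CPM. No gene of these 3 lists was at 0 in all libraries, and their part in the Padi2 result was not tested.

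Padi6, the deiminase of the oocyte, lay close to the detection limit with 10 to 28 counts per library, and was called in no comparison (edgeR adjusted p = 0.0732 to 0.447). Other neighbours of the PAD cluster, in a window chosen after the members' values were seen, moved in both directions. Of 16 tested genes of at least 1 CPM that lie within 500 kb of the cluster and are not PAD genes, 6 were higher, 2 lower and 8 not called between the loaded and the empty device. Over all tested genes 22.9% were higher and 18.5% lower in this comparison. The log2 fold changes of the 16 neighbours ran from -0.89 to 0.44, with a median of 0.00, against 0.48 to 0.71 for Padi1, Padi4 and Padi3 and -0.52 for Padi2. The highest was Gm13032, which overlaps Padi1 on the other strand. Rcc2, a chromosome condensation gene beyond Padi6, was higher (log2 change 0.28), and Arhgef10l, an exchange factor gene further on, was lower (-0.56), all 3 named after their values were seen.

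**Figure D2:**
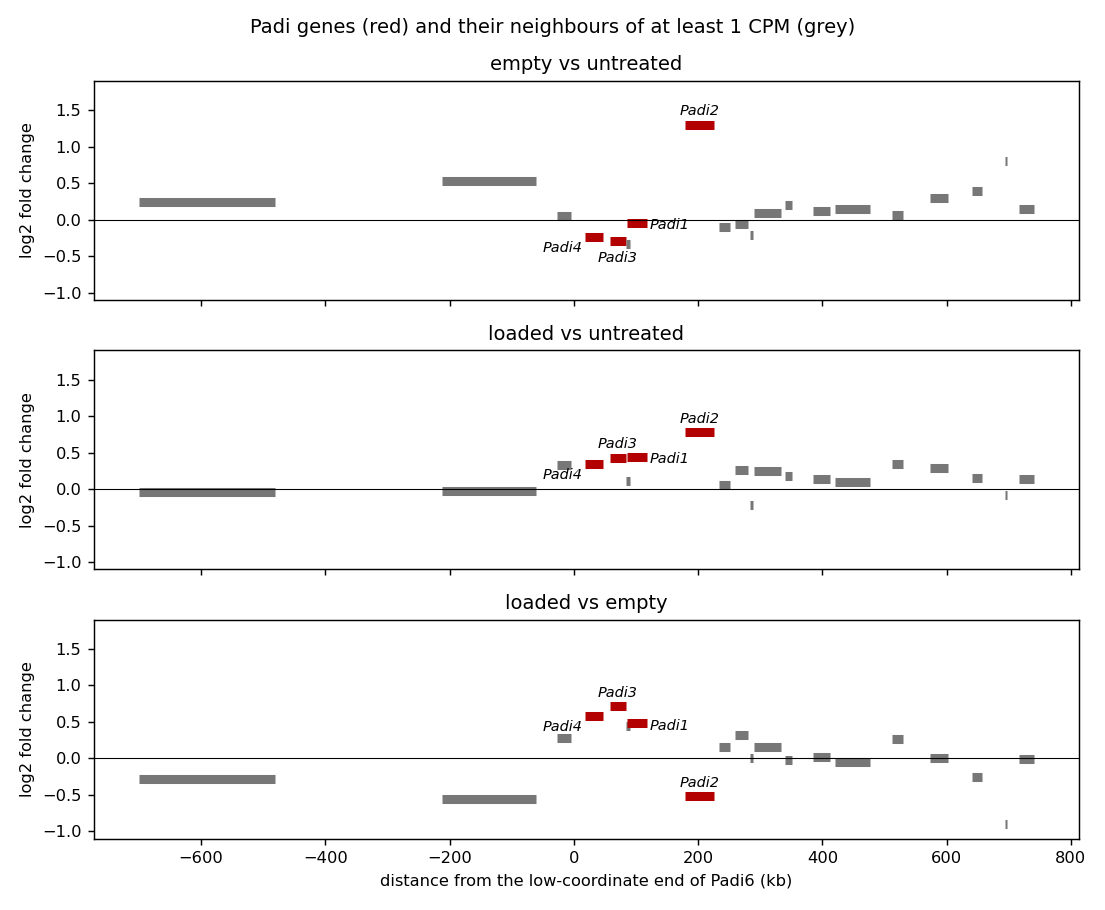
Log2 fold changes (vertical axes) of the Padi genes (red bars) and of neighbouring genes of at least 1 CPM (grey bars) are plotted against distance in kb from the low-coordinate end of Padi6, each bar as long as the gene, for the 3 comparisons. Between the loaded and the empty device Padi1, Padi3 and Padi4 lie at 0.48 to 0.71 and Padi2 at -0.52.

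Tgm1, Tgm3 and Tgm5 encode the transglutaminases of the epidermis and follicle, and each had its own pattern. Transglutaminase 1 is bound to the keratinocyte membrane and attaches the lipid envelope, and its loss causes lamellar ichthyosis in humans. Tgm1 stood at 245, 248 and 244 CPM in untreated skin, 287, 287 and 274 under the empty and 260, 261 and 258 under the loaded device. The differences were small, and the 3 groups did not overlap. Tgm1 rose with the empty device by 0.20 ± 0.031 against untreated skin (edgeR adjusted p = 3.81e-06, and 0.30 with library size alone) and was lower under the loaded than the empty device by -0.12 ± 0.031 (adjusted p = 0.00192). With the loaded device it was higher than in untreated skin by 0.08 ± 0.031, close to the threshold (edgeR adjusted p = 0.0473, and 0.21 with library size alone). That call was lost without any 1 of the untreated libraries, any 1 of the loaded-device libraries or empty-device library 1 (0.07 to 0.08, adjusted p = 0.0528 to 0.145). It was also lost with no filter (0.09, edgeR adjusted p = 0.136) and with the replicate block (0.08, adjusted p = 0.0612).

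Transglutaminase 3 is a soluble enzyme of upper epidermis and hair that proteases activate. Tgm3 stood at 185, 185 and 192 CPM in untreated skin, 167, 168 and 157 under the empty and 204, 198 and 191 under the loaded device. The empty-device libraries were the lowest of the 9, and the other groups overlapped by 1 library each. Tgm3 was 1.21-fold higher under the loaded than the empty device (log2 change 0.27, SE 0.035, edgeR adjusted p = 1.55e-07) and fell with the empty device by 0.19 ± 0.035 against untreated skin. That fall was smaller with upper-quartile scaling (-0.12), with library size alone (-0.09) and without empty-device library 3 (-0.12), and passed each time. Between the loaded device and untreated skin its log2 fold change was 0.08 (SE 0.035, edgeR adjusted p = 0.0668). That difference passed with upper-quartile scaling (0.10), library size alone (0.21), a stricter filter (0.09), only the groups compared (0.09) and the DESeq2 Wald test (0.09, adjusted p = 0.05). It also passed without untreated library 3, empty-device library 3 or loaded-device library 3 (0.10, 0.09 and 0.10).

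Transglutaminase 5, whose loss causes acral peeling of the skin in humans, cross-links proteins of the upper epidermis. Tgm5 stood at 66.2, 60.5 and 59.5 CPM in untreated skin, 54.6, 53.5 and 53.4 under the empty and 31.2, 33.7 and 33.4 under the loaded device. The groups did not overlap, and the loaded-device libraries were the lowest. Tgm5 fell 1.89-fold with the loaded device against untreated skin (log2 change -0.92, SE 0.040, edgeR adjusted p = 2.17e-16) and by 0.20 ± 0.039 on the log2 scale with the empty device, where upper-quartile scaling gave -0.13 and library size alone -0.10. It was 1.64-fold lower under the loaded than the empty device (-0.72 ± 0.040).

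The other transglutaminase genes of the table moved in both directions. Tgm6, which lies 62.0 kb from Tgm3, had the same order of groups as Padi3, with 112, 115 and 120 CPM in untreated libraries, 94.4, 95.5 and 85.2 under the empty and 155, 147 and 139 under the loaded device. It was higher under the loaded than the empty device by 0.68 ± 0.045 (edgeR adjusted p = 2.01e-10). Tgm7, which lies 7.7 kb from Tgm5, had 24 to 103 counts per library and was higher under the loaded than the empty device by 1.64 ± 0.23 (edgeR adjusted p = 6.29e-07), where Tgm5 was lower. Tgm2, the tissue transglutaminase of many cell types, and F13a1, the gene of the clotting transglutaminase factor XIII that macrophages also make, were lower under the loaded than the empty device (-0.53 ± 0.044 and -0.45 ± 0.043). Of the 7 other members of both enzyme families tested, with the deiminase gene Padi6 among them, 2 rose and 2 fell in each comparison with the loaded device. With the empty device 1 rose and 3 fell against untreated skin. Over all tested genes 19% rose and 23.3% fell with the loaded device against untreated skin, and 20.2% and 28.1% with the empty device. Between the devices 22.9% of all were higher and 18.5% lower. Padi6, Epb42 and Tgm4 were called in none of the 3 comparisons.

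Casp14 and Asprv1 encode proteases that cut filaggrin at different steps, and both fell with the loaded device. Caspase-14 breaks down the filaggrin monomer in cornified cells. Casp14 stood at 628, 636 and 618 CPM in untreated skin, 1135, 1036 and 1027 under the empty and 458, 452 and 485 under the loaded device. The groups did not overlap, and the empty-device libraries were the highest. Casp14 rose 1.70-fold with the empty device (log2 change 0.76, SE 0.039, edgeR adjusted p = 2.05e-15) and fell with the loaded device by 0.43 ± 0.039 against untreated skin. It was 2.29-fold lower under the loaded than the empty device (-1.20 ± 0.039, edgeR adjusted p = 4.37e-19).

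SASPase, a retroviral-like aspartic protease, cuts the linker of profilaggrin. Asprv1 stood at 5380, 5005 and 4826 CPM in untreated skin, 4385, 4461 and 4075 under the empty and 2440, 2474 and 2563 under the loaded device. The groups did not overlap, and the untreated libraries were the highest. Asprv1 was 2.03-fold lower under the loaded device than in untreated skin (log2 change -1.02, SE 0.043, edgeR adjusted p = 1.13e-16) and fell by 0.24 ± 0.042 on the log2 scale with the empty device, where library size alone gave -0.13 and leaving out empty-device library 3 gave -0.16. It was 1.73-fold lower under the loaded than the empty device (-0.79 ± 0.042).

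The summed level of the basal keratinocyte genes was highest in untreated libraries and lowest with the loaded device, the order that Asprv1 and Tgm5 also had. The sizes of the steps differed. Krt14, a basal keratin gene with the largest part of the sum in untreated skin, stood at 7223 ± 452 CPM there, 4064 ± 144 under the empty and 3581 ± 118 under the loaded device. It fell with both (-0.83 ± 0.043 and -1.01 ± 0.043). Between the devices Krt14 was at -0.18 ± 0.043, where Asprv1 was at -0.79 ± 0.042 and Tgm5 at -0.72 ± 0.040. Of the 6 genes 3 fell and none rose with the loaded device against untreated skin, and 3 fell and 2 rose with the empty device. Col17a1 and Itgb4, genes of the anchorage of basal cells, were the 2 that rose (0.23 ± 0.033 and 0.21 ± 0.033). Over all tested genes 23.3% fell and 19% rose with the loaded device, and 28.1% and 20.2% with the empty device. The part of basal cells in the Asprv1 and Tgm5 results was not tested.

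**Figure D3:**
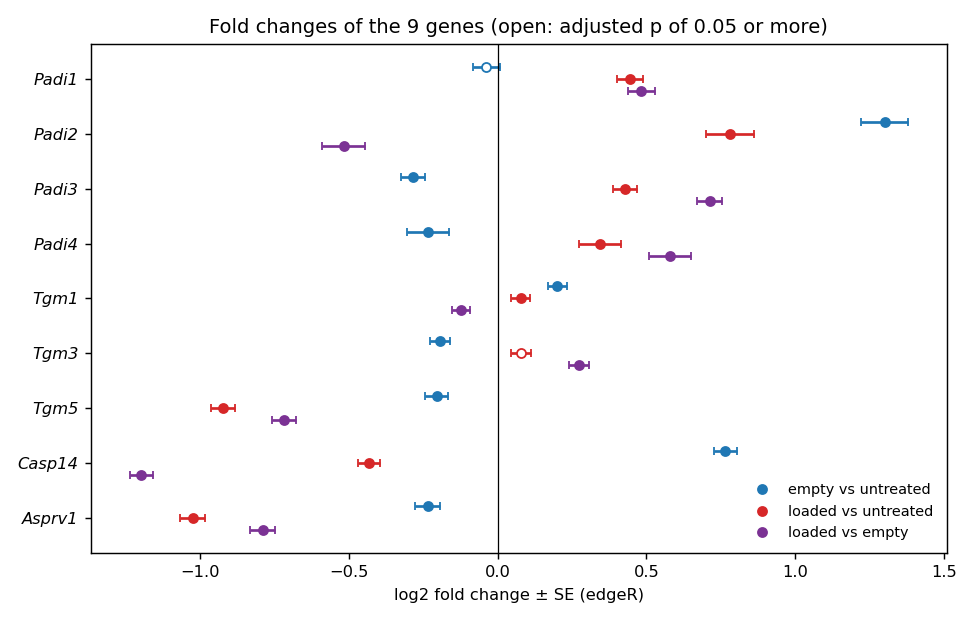
Log2 fold changes with standard errors (horizontal axis) of the 9 genes are plotted for 3 comparisons, with filled points for an adjusted p under 0.05. Only Padi1 between empty device and untreated skin and Tgm3 between loaded device and untreated skin are open, and Casp14 reaches -1.20 between the devices.

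Of the 9 members, the 3-group test of edgeR called all 9 (largest adjusted p = 0.000163), where it called 59.2% of all tested genes. Against untreated skin, 5 members rose with the loaded device, 3 fell and Tgm3 was not called, and over all genes 19% were called higher and 23.3% lower. With the empty device 3 rose (Padi2, Tgm1 and Casp14), 5 fell and Padi1 was not called, against 20.2% higher and 28.1% lower over all genes. Between the devices 4 were higher with the load (Padi1, Padi3, Padi4 and Tgm3) and 5 lower (Padi2, Tgm1, Tgm5, Casp14 and Asprv1), against 22.9% and 18.5% over all genes. The libraries of a pair of groups did not overlap for 8, 8 and 9 members in the same order, and for 52.7%, 54.6% and 50.8% of all tested genes. The median log2 fold change of the members was 0.08, -0.19 and -0.12 and that of all genes -0.01, -0.02 and 0.02. With library size alone as the scaling, 68.1% of the calls between loaded device and untreated skin were higher, against 44.9% with TMM. Each comparison shares a group of libraries with the others, so they are not independent.

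The members' profiles over the 9 libraries were compared by the root-mean-square distance between log2 levels, each centred on its own mean. The closest pair was Tgm5 and Asprv1, at 0.0612, with 0.0122 to 0.0131 counts of Tgm5 per count of Asprv1 on average in a group, and the next was Padi3 and Padi4, at 0.0686. Padi1 lay at 0.170 from Padi4 and 0.187 from Padi3. The widest distance was that between Padi2 and Asprv1, at 0.797. Among 13837 other named genes of at least 1 CPM, the nearest to Padi3 were Nrp2, a semaphorin co-receptor gene (0.0245), and Arid3a, a DNA-binding factor gene (0.0270). The nearest to Padi1 were Sema6a and Plxna2, genes of a semaphorin and a semaphorin receptor (0.0336 and 0.0412), and the nearest to Padi4 were Galc and Farp1 (0.0413 and 0.0415). Asprv1 was nearest to Them5 (0.0216), a thioesterase gene, and Lgals4 (0.0360), a galectin gene, and Tgm5 to Lgals4 as well (0.0431) and Gsta2 (0.0541). Tgm1 was nearest to Eif4g1 (0.0223), Tgm3 to D16Ertd472e (0.0290) and Slc7a1 (0.0304), and Casp14 to Slc24a2 (0.103) and Snx10 (0.112). Padi2 had no close match, with Rgs11 at 0.212 and Ache, the acetylcholinesterase gene, at 0.218.

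Genes of follicle substrates were lowest with the empty device and highest with the loaded device, as Padi3 was. Tchh, the gene of trichohyalin, stood at 14353 ± 474 CPM in untreated libraries, 9923 ± 608 under the empty and 17234 ± 813 under the loaded device. S100a3, the gene of a hair calcium-binding protein that PAD3 citrullinates, stood at 308 ± 14.3, 226 ± 11.1 and 374 ± 9.91 CPM. All 11 tested genes of the list of inner root sheath and medulla substrates, S100a3 and Krt75 included, were higher under the loaded than the empty device (median log2 fold change 0.77). All 11 fell with the empty device (median -0.50), and 9 rose with the loaded device against untreated skin with none lower (median 0.26). Over all tested genes 22.9% were higher between the devices, 28.1% fell with the empty device and 19% rose with the loaded device. Krt71 and Krt73, root sheath keratin genes, were higher by 0.77 ± 0.042 and 0.78 ± 0.041 between the devices, and Tchhl1 and Krt26 by 0.81 ± 0.040 and 0.76 ± 0.041. Keratin genes share sequence, so their single counts are uncertain.

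Flg, Lor and Krt10, genes of epidermal substrates, were highest with the empty device, as Casp14 was. Flg, the gene of filaggrin, stood at 1421, 1451 and 1353 CPM in untreated libraries, 2649, 2038 and 2518 under the empty and 1147, 1204 and 1204 under the loaded device. Empty-device library 2 lay below the other 2 of its group and above the remaining 6. Flg rose with the empty device by 0.77 ± 0.091 (edgeR adjusted p = 0.000165) and was at -0.25 ± 0.090 with the loaded device against untreated skin (adjusted p = 0.0611). Lor, the gene of loricrin, the main envelope protein, stood at 1611 ± 81.9, 2957 ± 162 and 1458 ± 37.4 CPM. Krt10, a suprabasal keratin gene, stood at 15743 ± 236, 22077 ± 433 and 12040 ± 547 CPM.

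Other envelope genes had another order. Hrnr, the gene of hornerin, and Ivl, that of involucrin, were lower with both devices than in untreated skin (-1.05 ± 0.042 and -0.64 ± 0.036 with the loaded device, -0.35 ± 0.041 and -0.36 ± 0.036 with the empty device), as Asprv1 and Tgm5 were. Of 20 tested envelope genes, 19 were lower and 1 higher under the loaded than the empty device (median log2 fold change -0.64), and 13 fell and 2 rose with the loaded device against untreated skin (median -0.63). With the empty device 9 rose and 6 fell (median 0.04). Over all tested genes 18.5% were lower and 22.9% higher between the devices, and 23.3% fell and 19% rose with the loaded device. With the empty device 20.2% of all rose and 28.1% fell. Sprr2d, a small proline-rich gene with near-identical copies, and Kprp were lower between the devices by -1.67 ± 0.063 and -0.67 ± 0.037. All 5 suprabasal keratins were lower under the loaded than the empty device (median -0.87), 4 rose with the empty device, and 3 fell and 1 rose with the loaded device. Among them Krt1 was at -1.08 ± 0.040, Krt78 at -0.70 ± 0.035 and Krt2 at -1.27 ± 0.067 between the devices.

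**Figure D4:**
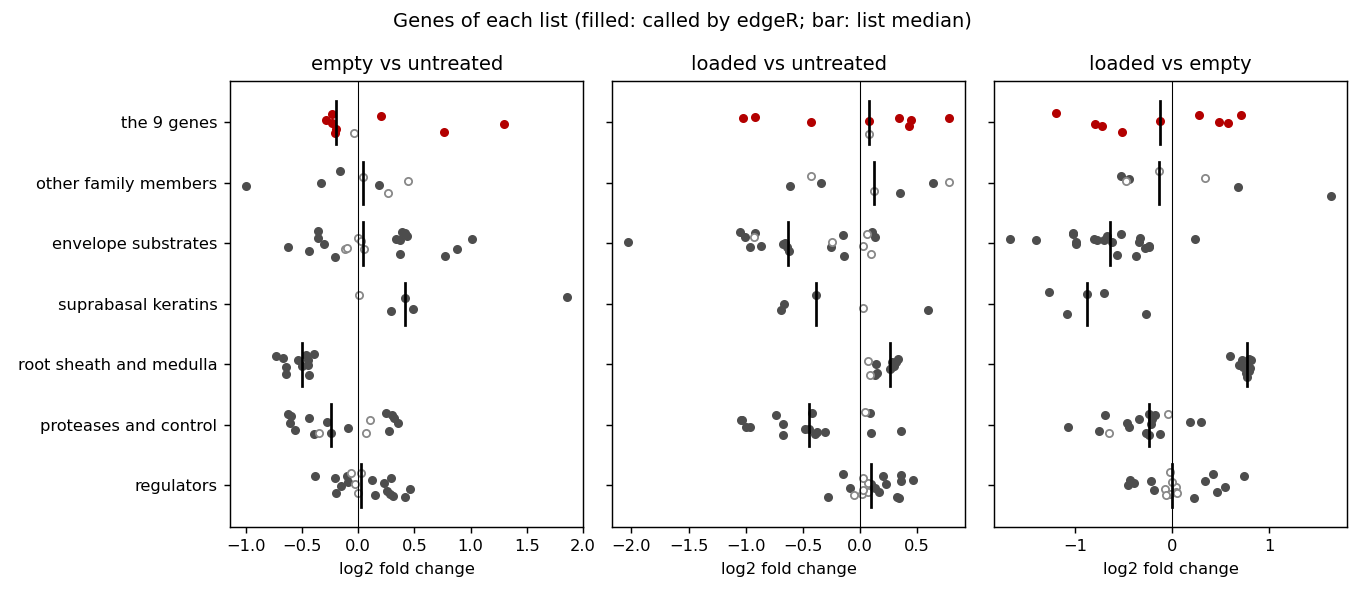
Log2 fold changes (horizontal axes) of the genes of each list are plotted for the 3 comparisons, 1 point per gene, filled where called, with a bar at the list median. Genes of the list of inner root sheath and medulla substrates lie together above 0 between the devices (median 0.77) and suprabasal keratins below 0 (median -0.87), with the 9 members on both sides.

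Most genes of a list of filaggrin processing and protease control, with proteases, inhibitors and the histidase gene Hal, were lower with the loaded device. Of 17 tested genes of this list 13 fell and 3 rose with it against untreated skin (median log2 fold change -0.45). The 3 that rose, named after their values were seen, were St14 (0.36 ± 0.034), Pcsk6 (0.10 ± 0.034) and Furin (0.09 ± 0.034). With the empty device 9 fell and 5 rose (median -0.24), and between the devices 13 were lower and 2 higher (median -0.24). St14 and Lgmn were the 2 higher (0.29 ± 0.034 and 0.18 ± 0.032), and Pcsk6 and Furin were lower (-0.18 ± 0.034 and -0.27 ± 0.034). Over all tested genes 23.3% fell and 19% rose with the loaded device, and 28.1% and 20.2% with the empty device. Between the devices 18.5% of all were lower and 22.9% higher. Klk7, the gene of a kallikrein that sheds cornified cells, fell by 1.03 ± 0.040 on the log2 scale with the loaded device and by 0.57 ± 0.039 with the empty device. Blmh, the gene of bleomycin hydrolase, which degrades citrullinated filaggrin fragments after PAD1 and caspase-14, stood at 840 ± 48.2 CPM in untreated skin and fell to 621 ± 21.9 under the empty and 525 ± 13.3 under the loaded device. Hal, the gene of histidase, which turns filaggrin's histidine into urocanic acid, rose with the empty device by 0.32 ± 0.035 and fell with the loaded device by 0.37 ± 0.035, as Casp14 did. The lysosomal protease genes Ctsl and Lgmn fell against untreated skin with the loaded (-0.67 ± 0.038 and -0.42 ± 0.032) and the empty device (-0.63 ± 0.038 and -0.61 ± 0.032).

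Regulators of cornification and of the inner root sheath, most of them transcription factor genes and with the receptor genes Notch1 and Casr among them, moved in both directions. Of 19 tested regulators 10 rose and 3 fell with the loaded device against untreated skin (median log2 fold change 0.10), 9 rose and 6 fell with the empty device (median 0.03), and 6 were higher and 5 lower between the devices (median -0.00). The shares of all tested genes called higher and lower were 19% and 23.3%, 20.2% and 28.1%, and 22.9% and 18.5% in the same order. Hoxc13 and Foxn1, regulators of hair differentiation, were higher under the loaded than the empty device by 0.75 ± 0.040 and 0.55 ± 0.038, and lower with the empty device than in untreated skin (-0.39 ± 0.040 and -0.20 ± 0.038). Klf4 and Grhl3, regulators of the epidermal barrier, rose with the empty device (0.41 ± 0.033 and 0.46 ± 0.031) and were lower under the loaded than the empty device (-0.39 ± 0.033 and -0.44 ± 0.031). Gata3, a regulator of the inner root sheath, rose with both devices (0.23 ± 0.032 each) and did not pass between them (-0.00 ± 0.032, edgeR adjusted p = 0.952).

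Ratios of 2 genes within a library do not depend on the scaling between libraries, and 9 such ratios were compared over the 3 groups with an exact permutation test of all 1680 assignments of the libraries. The smallest p it can give is 0.00357, and 3 libraries against 3 alone cannot go below 0.1. Padi3 averaged 2.67 counts per count of Padi1 in untreated skin, 2.25 under the empty and 2.64 under the loaded device (exact permutation p = 0.0179, adjusted over the 9 ratios 0.0230). Tgm3 averaged 0.761, 0.579 and 0.762 counts per count of Tgm1 (exact permutation p = 0.0357, adjusted 0.0402). In both ratios the empty-device libraries lay below all others and the other groups overlapped. Tgm5 per count of Tgm1 was lowest for the loaded device, at 0.252 for untreated skin, 0.191 for the empty and 0.126 for the loaded device, and Casp14 averaged 0.124, 0.247 and 0.187 counts per count of Asprv1 (exact permutation p = 0.00357, adjusted 0.00536 for each).

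Enzymes and their substrates also changed unequally. Padi3 averaged 0.0292, 0.0347 and 0.0327 counts per count of Tchh, and Tgm3 0.0130, 0.0165 and 0.0115, in untreated, empty-device and loaded-device libraries. Tgm1 averaged 0.0156, 0.0128 and 0.0216 counts per count of Krt10, and Padi1 0.00997, 0.00692 and 0.0177. Each of these 4 ratios gave the smallest p of the exact permutation test (0.00357, adjusted 0.00536), and in each no library of 1 group overlapped another group. Casp14 averaged 0.446, 0.446 and 0.392 counts per count of Flg, which did not pass (exact permutation p = 0.125). This ratio passed without empty-device library 2 or 3 (adjusted exact permutation p = 0.00918 and 0.0357).

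**Figure D5:**
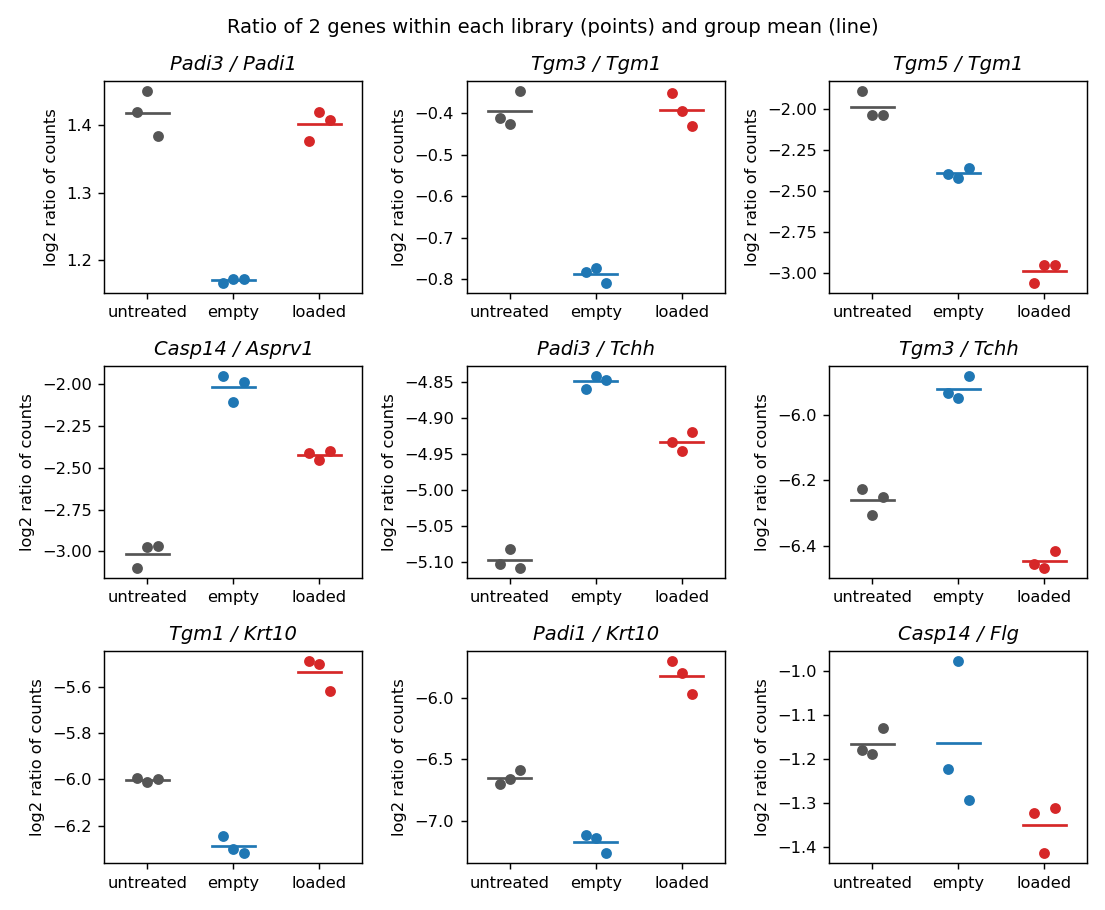
The log2 ratio of the counts of 2 genes within each library (vertical axes) is plotted by group, with points for libraries and lines for group means. Tgm5 to Tgm1 falls from untreated to empty to loaded device, and Tgm1 and Padi1 are highest relative to Krt10 with the loaded device.

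The spans of 5 members overlap other genes in the table, so that shared reads could be left uncounted or counted elsewhere. Gm49067 covers 12274 bases of Tgm1 on the other strand and had 975 counts over the 9 libraries, against 214668 for Tgm1. Gm13032 overlaps Padi1 by 4529 bases (895 counts against 142331), and Gm13031 overlaps Padi2 by 4921 bases (105 against 5723). Gm14213 within Tgm5 had 5 counts, and Mir6339 within Tgm3 and Gm26226 within Padi2 had 0. Padi3, Padi4, Casp14 and Asprv1 overlap no other gene that the table lists as a single interval. Genes listed with several intervals were not searched.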

How the data were processed

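The authors deposited raw counts per gene, a column for each library, per the file headers. Reads had been aligned to mm39 with HISAT2 and counted with featureCounts, per the submitters' processing notes. RNA was isolated with miRNeasy (Qiagen) and libraries were made with xGen reagents (IDT), per the labels' protocols. The sources used here give no tool versions, annotation or strand setting. The length listed equals the whole span for 99.9% of genes, so intronic reads were counted.

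The filterByExpr function of edgeR (at least 10 counts, total 15) kept 26081 of 54456 genes. Counts of all 9 libraries were scaled with TMM and fitted with a coefficient for each group by the robust quasi-likelihood test of edgeR 4.0.16 in R 4.3.3. P-values were adjusted by Benjamini and Hochberg's method across the tested genes, and an adjusted p under 0.05 was called. Standard errors come from the F statistic. The steps were tested on simulated counts. Named genes are the members, up to 4 genes of each list with the smallest p in the 3-group test, the 2 nearest profiles to each member, overlapping genes and a set of pathway genes; 1 gene that this rule names is not reported here. Ratios used a prior count of 0.5. Members and lists were chosen with earlier results of these data known. Alternatives were other scalings, filters and tests (DESeq2 1.42.0, limma-voom 3.58.1), a fit of 2 groups alone, a replicate block and leaving out each library.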

Additional observations from a re-analysis of the deposited data

How the results depend on the processing

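Of the 27 fold changes of the members, 23 kept their direction and their side of the threshold under all 18 alternatives, which were 3 other scalings, no filter, a stricter filter, the DESeq2 Wald test, limma-voom, a fit of 2 groups alone, a replicate block and leaving out each of 9 libraries. The exceptions were Padi1 and Padi4 with the empty device and Tgm1 and Tgm3 with the loaded device, all against untreated skin. The Padi1 value turned to 0.032 with upper-quartile scaling, 0.065 with library size alone and 0.0523 without empty-device library 3, and leaving out 1 library gave -0.0753 to 0.0523. The counts of members called ran from 7 to 9 for the loaded device against untreated skin and from 7 to 8 for the empty device, and 9 were called between the devices under every alternative. Library size alone moved the median of all genes between loaded device and untreated skin to 0.12 and the share of higher calls from 44.9% to 68.1%. With upper-quartile scaling the share of higher calls was 53.1% for the empty device against untreated skin and 44.4% between the devices, and with library size alone it was 57.9% for the empty device, against 41.7% and 55.3% with TMM. The same replicate numbers recur in each group, and the labels do not say what libraries of 1 number share. Deviations of same-numbered libraries of different groups correlated at 0.078 to 0.115 over genes in 9 pairs. Those of differently numbered libraries correlated at -0.0741 to -0.0176, and every library correlated best with one of its own number. What lies behind this pattern was not tested. With the replicate block 10960 genes were called between the loaded device and untreated skin, against 11024 without it, and the only member whose call changed was Tgm1. Of the 9 ratios, all kept their call with a prior count of 5. With a floor of 5 CPM 17 of the 18 nearest genes were kept. The median squared difference between 2 libraries of 1 group was 1.82 to 3.58 times that given by counting noise alone. Between libraries of different groups it was 8.93 to 19.1 times. Depth limits Padi6, Tgm4, Tgm7 and the neutrophil genes Prtn3, Mpo, Stfa2l1, Ly6g, Ltf, Mmp8, Retnlg, Elane, Camp and Ngp, whose counts were low.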
